A study of Mus musculus with 24 samples.

Results

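Wild-type microglia stimulated with 10 ng/ml of lipopolysaccharide were compared with wild-type microglia stimulated with 0.1 ng/ml, to separate genes that were already near their maximum at the lower dose from genes that needed the higher one. The comparison uses 6 of the 24 RNA-sequencing libraries of the series, 3 at each dose, chosen by their labelled genotype, agent and dose. In both groups primary microglial cells of newborn (p0) C57BL/6 mice received Re-LPS, a rough-type LPS with a truncated sugar chain, for 3 h. The 3 untreated C57BL/6 libraries served as the baseline for both doses, and libraries of CD14-deficient cells (B6.129S4-Cd14tm1Frm/J) at the same 2 doses serve to set the dose effect of the genotypes against each other. The model was fitted over all 24 libraries, so the other groups enter the estimate of the spread behind every SE and p. Besides those named, these were untreated CD14-deficient cells and cells of each genotype given fibronectin (100 ug/ml, 3 h). The series describes 3 independent cell preparations for each condition. Whether cells of several pups were pooled is not stated. All cells were cultured, so none of the groups stands for microglia inside the brain.

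LPS, an outer-membrane lipid of Gram-negative bacteria, is handed by the surface protein CD14 to the receptor pair TLR4 and MD-2 (gene Ly96). TLR4 signals at the cell surface through the adaptor MyD88 to NF-kB and MAP kinases, which drive cytokine and chemokine genes within the first hours. From endosomes it signals through TRIF (gene Ticam1) to IRF3 and interferon beta, and the interferon then acts back on the cell through STAT proteins and IRF9. Inhibitors induced by the same signals, such as IkB alpha (Nfkbia) and A20 (Tnfaip3), limit the response.

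The 6 LPS libraries held 15499806 to 18138974 counted reads and the 3 untreated ones 15647116 to 16879244. Levels are given as CPM, the counts of a gene per unit of scaled library size, after TMM scaling, whose factors were 0.668 to 0.770 at 10 ng/ml, 0.963 to 1.16 at 0.1 ng/ml and 1.18 to 1.30 in untreated cells. The third library at 0.1 ng/ml stood apart. Of the 1820 genes that rose at least 2-fold at 10 ng/ml, it had come least far toward the 10 ng/ml level of the same number in 1663 (91.4%). The ribosomal precursor transcript Rn45s took 5.92% of reads in the third library at 10 ng/ml and 3.62% in the third at 0.1 ng/ml, against 0.0346% to 0.785% in the other 7 wild-type libraries; this pair is called the Rn45s-rich libraries below. Deviations from the group means correlated at 0.642 to 0.938 between libraries of the same number, and at -0.779 to 0.391 between others. For many counts and calls, the result of a fit with a block for the replicate number is quoted beside the main one. Defining microglial markers were high in every library, with a summed level of 13770 to 16000 CPM at 10 ng/ml, 15080 to 15810 CPM at 0.1 ng/ml and 13640 to 15210 CPM in untreated cells. Summed oligodendrocyte lineage markers stood at 225.7 to 490.3 CPM at 10 ng/ml and 256.2 to 447.7 CPM at 0.1 ng/ml. Astrocyte markers stood at 17.8 to 47.0 CPM at 10 ng/ml and 15.9 to 38.5 CPM at 0.1 ng/ml. Neuron markers stood at 10.5 to 25.6 CPM at 10 ng/ml and 6.80 to 20.1 CPM at 0.1 ng/ml. Vascular and fibroblast markers stood at 26.1 to 48.0 CPM at 10 ng/ml and 18.8 to 34.7 CPM at 0.1 ng/ml. The astrocyte marker Ntsr2 and the pericyte marker Rgs5 had 0 counts in these 6 libraries. Markers of other leukocytes summed to at most 1.19 CPM at 10 ng/ml and 1.82 CPM at 0.1 ng/ml. Of these 38 tested markers of other cells, 3 were called higher at 10 ng/ml (Gja1, Pdgfrb and Cnp), against 14.8% of all tested genes. Called lower was 1 (Cspg4), against 17.4%. With the block 10 were higher and 2 lower, and without both Rn45s-rich libraries none of these 4 calls remained (adjusted p = 0.0725 to 0.283). The part of such cells in the results below was not tested, and in these bulk samples fewer cells of a type and less RNA per cell cannot be told apart.

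Between the doses, 4285 of 13294 tested genes differed (32.2%; edgeR quasi-likelihood test, Benjamini-Hochberg adjusted p under 0.05). Of these, 1968 (14.8%) were higher and 2317 (17.4%) lower at 10 than at 0.1 ng/ml. With the replicate block 3704 were higher and 3872 lower. The counts over all 13294 tested genes, without and with the block, are the background for each gene list below. Without the third library at 0.1 ng/ml 1382 were higher and 1547 lower. Without TMM, over library totals alone, the median log2 difference of all genes moved by -0.56, and 840 genes were called higher and 6117 lower. Upper-quartile scaling moved it by -0.12. Directions below are therefore relative to the bulk of expressed genes. Set against the dose effect of CD14-deficient cells, the wild-type dose effect differed for 674 genes (5.07%), being higher for 255 (1.92%) and lower for 419 (3.15%).

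Against untreated cells, 1820 genes (13.7%) were called and at least 2-fold higher at 10 ng/ml, and 767 (5.77%) at 0.1 ng/ml. The fallen genes, called and at least 2-fold lower, numbered 2032 (15.3%) at 10 ng/ml and 245 (1.84%) at 0.1 ng/ml. With no limit on the fold, 1322 genes (9.94%) were called higher and 753 (5.66%) lower at 0.1 ng/ml than in untreated cells. Genes were then sorted by how they stood at both doses. A gene was near its maximum at 0.1 ng/ml when it had risen at both doses and the 95% interval of the log2 difference between the doses lay within -1 and 1, that is, within 2-fold. It needed 10 ng/ml when it had risen there, was at least 2-fold higher than at 0.1 ng/ml, was not called at 0.1 ng/ml and had an upper 95% limit under 2-fold at that dose. A graded rise meant a rise at both doses and a called difference of at least 2-fold between them.

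By these rules 71 genes (0.534% of those tested) were near their maximum at 0.1 ng/ml, 167 (1.26%) needed 10 ng/ml and 427 (3.21%) rose in a graded way. The remaining 1155 of the 1820 risen genes met none of the 3 rules. With the replicate block 146 genes were near their maximum, of which 70 were among the 71, and 152 needed 10 ng/ml, of which 104 were among the 167. The graded rises numbered 591 in that fit, among them 420 of the 427. With a limit of 1.5-fold in place of 2-fold the classes held 50 genes (17 of the 71) and 213 (66 of the 167). The class sizes depended on single libraries. Without the third library at 0.1 ng/ml, 111 genes were near their maximum (62 of the 71 among them) and 96 needed 10 ng/ml (92 of the 167). Without the first library at 0.1 ng/ml, 42 were near their maximum (41 of the 71). Without both Rn45s-rich libraries 91 genes needed 10 ng/ml, and 81 of them were among the 167. Since a narrow interval is part of the rule, a noisy gene could not count as near its maximum.

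The distance covered at 0.1 ng/ml is given as the share of the rise, the CPM gained over untreated cells at 0.1 ng/ml as a percent of the CPM gained at 10 ng/ml. It is a description, since both gains share the untreated libraries. Over the 1820 risen genes the median share was 27.3%, with 33.1%, 37.2% and 13.4% by replicate number. For 224 genes the share was under 10%, for 1354 between 10% and 50%, for 214 between 50% and 100%, and for 28 over 100%. On the log2 scale, a measure chosen after seeing the data, the median was 49.1%.

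**Figure D1:**
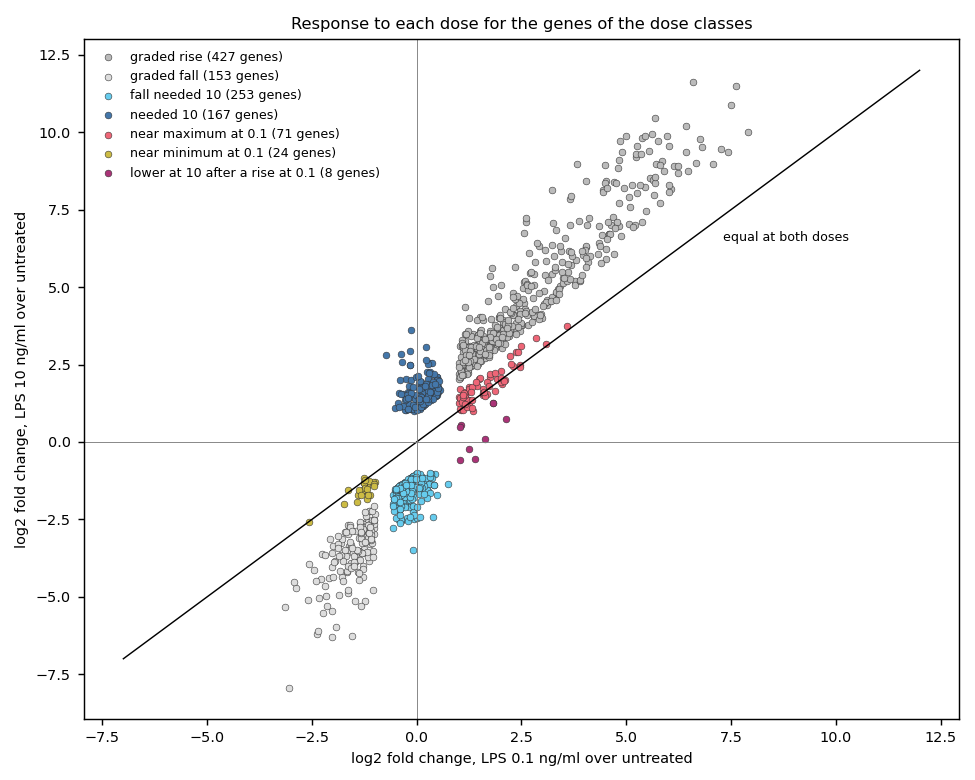
Each point is a gene of a dose class in wild-type microglia, with the log2 fold change at 0.1 ng/ml over untreated cells on the x axis, that at 10 ng/ml on the y axis, and a line where both are equal. The 71 genes near their maximum lie along the line. The 167 that needed 10 ng/ml lie above 0 on the y axis at an x near 0. The 427 graded genes fill the space between, and the falling classes mirror them below. The class rules set these places, so they are no separate result.

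Of 22 tested cytokine genes, 20 were higher at 10 ng/ml and 0 lower, with a median log2 difference of 3.27 against -0.005 for all tested genes. The other 2, Il33 and Csf2, were called with the replicate block. A graded rise was seen in 16, against 3.21% of all tested genes, and over the 21 risen members the median share of the rise was 7.14%. Tnf, the early cytokine that acts on nearly every tissue, held 38.9, 26.0 and 13.7 CPM in untreated cells, 2117, 1432 and 438 CPM at 0.1 ng/ml and 7401, 6164 and 6379 CPM at 10 ng/ml. The libraries of the doses did not overlap, and the third at 0.1 ng/ml was the lowest of its group. All 3 libraries at 10 ng/ml lay above all 3 at 0.1 ng/ml in 20.2% of tested genes, and all below in 23.4%. Tnf was higher at 10 ng/ml by 2.32 ± 0.44 on the log2 scale (± SE, here and below; adjusted p = 5.1e-04), and 19.7% of its rise was present at 0.1 ng/ml.

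Il6, which drives the acute-phase response, stood at 0.364, 0.237 and 0.691 CPM in untreated cells, 38.9, 23.9 and 5.18 CPM at 0.1 ng/ml and 583, 497 and 768 CPM at 10 ng/ml. The difference between the doses was 4.76 ± 0.60 (adjusted p = 1.1e-05), and the share of the rise was 3.62%. Il12b, the p40 subunit shared by interleukins 12 and 23, held 2919, 2574 and 1727 CPM at 10 ng/ml and 284, 204 and 33.6 CPM at 0.1 ng/ml (3.79 ± 0.61, adjusted p = 1.1e-04). The third library was the lowest at both doses for this gene. Il1b, whose protein is released after cleavage by the inflammasome, held 5019.5, 3696 and 7119.6 CPM at 10 ng/ml and 1072, 498 and 187 CPM at 0.1 ng/ml (3.17 ± 0.44, adjusted p = 2.8e-05). Its alarmin relative Il1a differed more, with 2767, 2458 and 3369 CPM at 10 ng/ml and 258, 149.7 and 29.3 CPM at 0.1 ng/ml (4.30 ± 0.56, adjusted p = 1.4e-05). No library of one dose reached the range of the other for any of these genes.

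Ifnb1, the type I interferon gene itself, held 214, 185 and 133 CPM at 10 ng/ml and 9.58, 4.72 and 2.01 CPM at 0.1 ng/ml. It differed by 5.03 ± 0.67 (adjusted p = 2.0e-05), the second largest rise among the genes named by the rule, and untreated cells held at most 0.0987 CPM. Serping1, the C1 inhibitor of the complement and contact systems, had the largest, 5.16 ± 0.77 (adjusted p = 5.2e-05), with 7.76, 7.48 and 20.1 CPM at 10 ng/ml and 0.315, 0.455 and 0.201 CPM at 0.1 ng/ml. The anti-inflammatory Il10 stood at 3.14, 3.74 and 6.34 CPM at 10 ng/ml and was near absent at 0.1 ng/ml, with 0.189, 0.114 and 0.151 CPM (4.81 ± 0.45, adjusted p = 5.4e-07). Il27, a cytokine of the interleukin 12 family, held 786, 725 and 731 CPM at 10 ng/ml and 52.5, 42.0 and 11.2 CPM at 0.1 ng/ml (4.41 ± 0.41, adjusted p = 5.3e-07). Oncostatin M (Osm), of the interleukin 6 family, was the only cytokine of the list in the class that needed 10 ng/ml, with 13.1, 13.2 and 11.99 CPM in untreated cells, 16.8, 15.8 and 9.72 CPM at 0.1 ng/ml and 46.5, 42.6 and 26.6 CPM at 10 ng/ml.

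**Figure D2:**
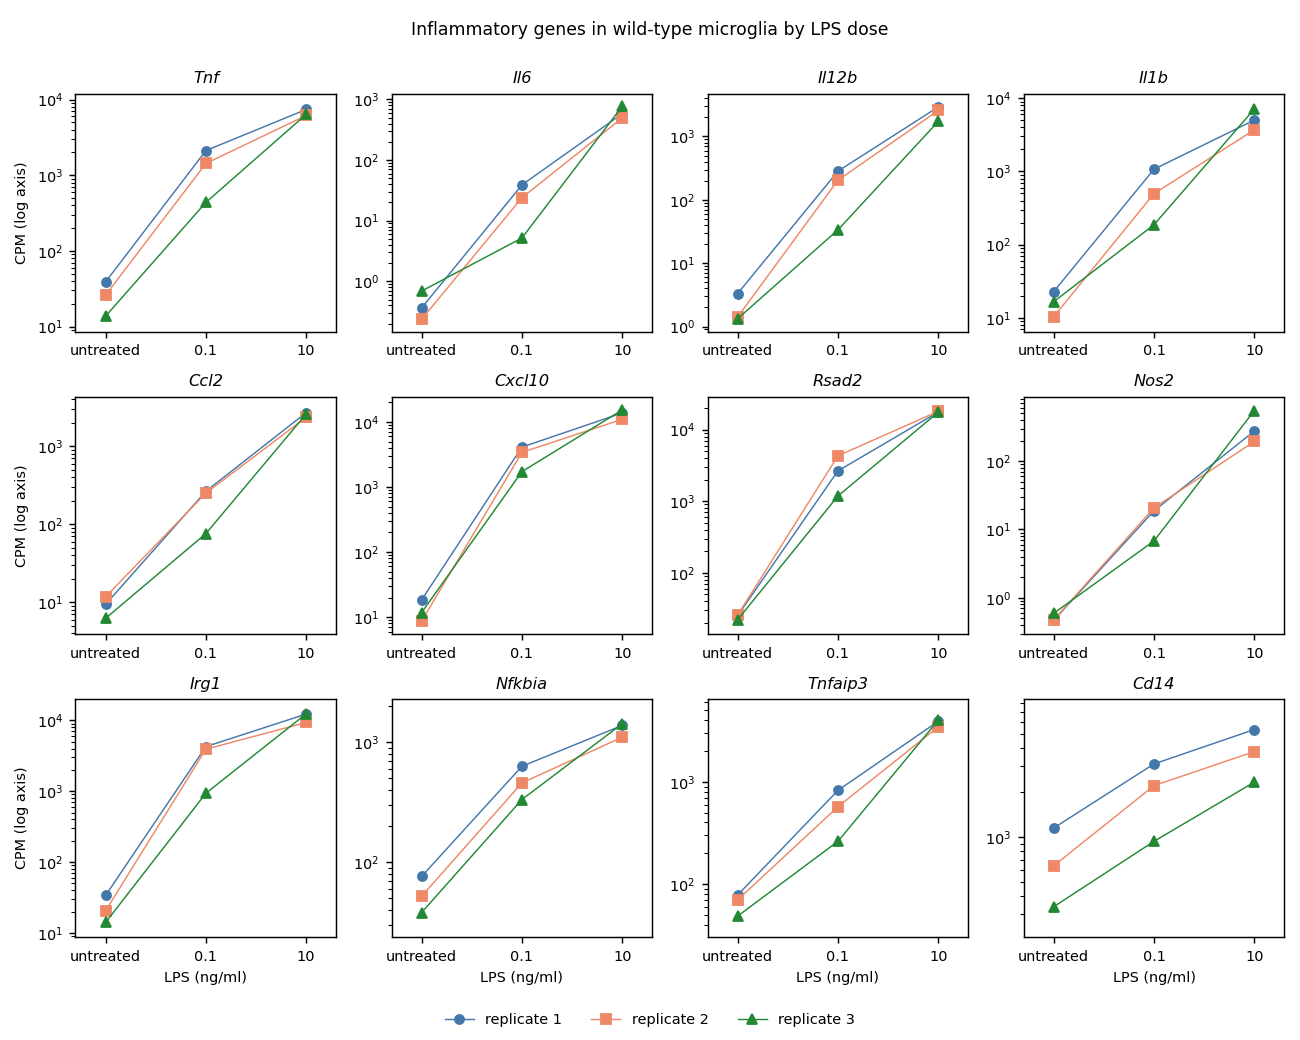
CPM on a log axis in untreated wild-type microglia and at 0.1 and 10 ng/ml LPS for Tnf, Il6, Il12b, Il1b, Ccl2, Cxcl10, Rsad2, Nos2, Irg1, Nfkbia, Tnfaip3 and Cd14, with one marker and line for each replicate number. Replicate 3 is the lowest at 0.1 ng/ml in all 12 panels; Tnf, for example, holds 438 CPM there against 1432 and 2117 CPM in the other 2 libraries of the dose.

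Of 21 chemokine genes 14 were higher at 10 ng/ml and 0 lower (17 and 1 with the block), against 14.8% and 17.4% of all tested genes. The median share of the rise was 18.2% over 18 risen members, and the median log2 difference was 2.14. Ccl2 and Ccl7, attractants of monocytes, differed by more than this median. Ccl2 held 2705, 2361 and 2595 CPM at 10 ng/ml and 265, 251 and 76.0 CPM at 0.1 ng/ml (3.69 ± 0.60, adjusted p = 1.3e-04). Ccl7 held 857, 826 and 759 CPM at 10 ng/ml and 44.2, 60.0 and 9.77 CPM at 0.1 ng/ml (4.42 ± 0.48, adjusted p = 2.2e-06). Ccl5, which attracts T cells and monocytes, held 2237, 1786 and 2375 CPM at 10 ng/ml and 402, 334 and 78.9 CPM at 0.1 ng/ml (2.97 ± 0.57, adjusted p = 5.3e-04). Ccl3 stood at 7257, 6029 and 8517 CPM at 10 ng/ml and 1909, 1670.3 and 703 CPM at 0.1 ng/ml (2.35 ± 0.30, adjusted p = 1.0e-05). Cxcl10, an interferon-induced attractant of T cells, held 13772, 11008 and 15309 CPM at 10 ng/ml and 4109, 3409 and 1723 CPM at 0.1 ng/ml (2.12 ± 0.53, adjusted p = 0.00495). Without both Rn45s-rich libraries the Cxcl10 call was lost (adjusted p = 0.0762). The neutrophil attractant Cxcl1 held 198, 99.1 and 165 CPM at 10 ng/ml and 56.6, 21.5 and 6.54 CPM at 0.1 ng/ml (2.45 ± 0.60, adjusted p = 0.00429), and in a fit of the 6 LPS libraries alone its call was lost (adjusted p = 0.0666). Cxcl2, its near relative, was not called (1.49 ± 0.80, adjusted p = 0.176; adjusted p = 5.6e-04 with the block), at 1551, 970.0 and 894 CPM at 10 ng/ml and 792, 355 and 70.0 CPM at 0.1 ng/ml.

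Interferon-stimulated antiviral genes had covered more of their rise at 0.1 ng/ml than cytokines. All 44 tested members had risen at least 2-fold at 10 ng/ml and 40 at 0.1 ng/ml, with a median share of 32.4%. Between the doses 29 were higher and 0 lower, with a median of 1.41, and 15 were not called, 14 of which were called with the block. Over library totals 20 were higher, without the third library at 0.1 ng/ml 19, and without both Rn45s-rich libraries 15. Rsad2 (viperin), which blocks viral replication, held 25.2, 25.6 and 22.1 CPM in untreated cells, 2655, 4308 and 1182 CPM at 0.1 ng/ml and 17612, 18054 and 17554 CPM at 10 ng/ml, a difference between the doses of 2.71 ± 0.47 (adjusted p = 2.3e-04). Ifit1, which binds foreign RNA, held 5857, 4938 and 6098 CPM at 10 ng/ml and 1329.6, 1406 and 619 CPM at 0.1 ng/ml (2.33 ± 0.47, adjusted p = 7.9e-04). Isg15, the ubiquitin-like modifier, held 1629, 980.1 and 1009 CPM at 10 ng/ml and 359, 240.3 and 128 CPM at 0.1 ng/ml (2.32 ± 0.56, adjusted p = 0.00344). Signal carriers of the pathway differed less. Stat2 held 863, 812 and 1118 CPM at 10 ng/ml and 608, 587 and 542 CPM at 0.1 ng/ml and was not called (0.68 ± 0.30, adjusted p = 0.0911; adjusted p = 0.00461 with the block), with a share of 58.9%, and Irf9 was called at 0.63 ± 0.20 (adjusted p = 0.0209), a call lost without the third library at 10 ng/ml (adjusted p = 0.103), without the second (adjusted p = 0.0796) or the third (adjusted p = 0.0805) at 0.1 ng/ml, and over library totals (log2 difference 0.06). Among 16 interferon-inducible GTPases, which attack the vacuoles of intracellular microbes, 10 were higher (16 with the block) and 0 lower. The background for the lists of this paragraph was 14.8% higher and 17.4% lower over all tested genes. Gbp5 held 3151, 2820.1 and 4193 CPM at 10 ng/ml and 571, 525 and 163 CPM at 0.1 ng/ml (3.01 ± 0.43, adjusted p = 3.5e-05). Near-identical members of the Gbp, Tgtp, Ifit and Oas families can share reads, so the values of single members are uncertain.

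Promoter sequences are shown for 4 genes whose steps between the doses are described here, Il6, Cxcl10 and Ifnb1 as graded genes and Irf8 as a gene that needed 10 ng/ml. Each runs from 250 bases before to 50 bases after the start in RefSeq (GRCm38.p6), 5′ to 3′ on the strand of the gene. Capitals mark every match, on either strand, to GGGA and TTCC parted by any 2 bases (NF-kB-like), to GAAA and GAAA parted by any 2 bases (like the interferon-stimulated response element), to TGANTCA (AP-1-like) or to TTCNNNGAA (STAT-like). In these 4 promoters no matches overlap. Promoters of Tnf and Il12b (graded), Hk2 (needed 10 ng/ml) and Icosl (near its maximum) held no match and are not printed. The second promoter of Irf8 also held none.
Il6, chr5:30012864-30013163, plus strand: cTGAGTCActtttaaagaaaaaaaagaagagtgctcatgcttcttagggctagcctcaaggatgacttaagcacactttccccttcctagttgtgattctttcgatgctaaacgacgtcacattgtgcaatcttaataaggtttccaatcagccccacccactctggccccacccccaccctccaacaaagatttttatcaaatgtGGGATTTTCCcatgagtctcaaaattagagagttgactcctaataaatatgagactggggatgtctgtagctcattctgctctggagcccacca
Cxcl10, chr5:92348840-92349139, minus strand: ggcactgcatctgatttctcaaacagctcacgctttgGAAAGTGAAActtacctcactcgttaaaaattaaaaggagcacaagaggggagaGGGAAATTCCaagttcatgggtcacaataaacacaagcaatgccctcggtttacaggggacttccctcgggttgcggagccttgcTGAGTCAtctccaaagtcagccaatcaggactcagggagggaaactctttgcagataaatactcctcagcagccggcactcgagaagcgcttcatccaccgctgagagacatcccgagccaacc
Ifnb1, chr4:88522745-88523044, minus strand: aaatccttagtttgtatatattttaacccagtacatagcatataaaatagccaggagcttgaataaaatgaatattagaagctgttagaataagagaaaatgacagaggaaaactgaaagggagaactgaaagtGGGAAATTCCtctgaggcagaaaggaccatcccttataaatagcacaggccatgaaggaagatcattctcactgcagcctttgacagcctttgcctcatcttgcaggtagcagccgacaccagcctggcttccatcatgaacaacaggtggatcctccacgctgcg
Irf8, chr8:120736108-120736407, plus strand, the first of 2 listed promoters: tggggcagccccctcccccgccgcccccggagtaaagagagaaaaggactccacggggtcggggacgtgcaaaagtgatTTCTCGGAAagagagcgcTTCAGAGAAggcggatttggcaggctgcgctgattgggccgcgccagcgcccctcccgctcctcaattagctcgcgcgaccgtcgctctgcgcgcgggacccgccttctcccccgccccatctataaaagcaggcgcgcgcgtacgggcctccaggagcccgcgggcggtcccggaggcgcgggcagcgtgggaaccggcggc
Il6 holds an AP-1-like match at its far end and an NF-kB-like match 44 bases before the start. Cxcl10 holds matches to the response element, the NF-kB-like and the AP-1-like motif, Ifnb1 a single NF-kB-like match 116 bases before the start, and Irf8 a pair of STAT-like matches.

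Promoters in RefSeq were found for 304 of the 427 graded genes, 53 of the 71 genes near their maximum and 129 of the 167 that needed 10 ng/ml. The NF-kB-like motif was in 5.03% of 398 promoters of graded genes, 1.41% of 71 promoters of genes near their maximum, 0.57% of 176 of those that needed 10 ng/ml and 1.51% of 12083 promoters of all tested genes. The response element was in 10.6% for graded genes, 4.23% near the maximum, 2.84% where 10 ng/ml was needed and 3.19% of all. The AP-1-like motif was in 10.3% for graded genes, 2.82% near the maximum, 7.95% where 10 ng/ml was needed and 5.29% of all, and the STAT-like motif in 10.6%, 5.63%, 7.39% and 6.94% of the same sets. These are counts of letters in a window, given without a test.

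Of 29 tested genes of the NF-kB system 23 were higher at 10 ng/ml and 0 lower, against 14.8% and 17.4% of all tested genes. With the block 26 were higher and 0 lower, and over library totals 17 and 2 (median in the main fit 1.28). Shares of the rise of their risen members ran between 13.1% and 69.2%, 16 rose in a graded way and 2, Relb and Irak3, were near their maximum at 0.1 ng/ml. Among the inhibitors, Nfkbia held 75.9, 51.7 and 37.8 CPM in untreated cells, 632, 459 and 333 CPM at 0.1 ng/ml and 1388, 1107 and 1433 CPM at 10 ng/ml. It differed by 1.46 ± 0.23 (adjusted p = 8.4e-05) and 33.4% of its rise was present at 0.1 ng/ml. Tnfaip3, the deubiquitinase A20, had 3919, 3459 and 4015 CPM at 10 ng/ml and 825, 571 and 261 CPM at 0.1 ng/ml (2.78 ± 0.32, adjusted p = 4.6e-06), with a share of 13.1%. Socs3, an inhibitor of STAT3 signalling, held 2542, 2049.6 and 2528 CPM at 10 ng/ml and 549, 343 and 95.2 CPM at 0.1 ng/ml (2.85 ± 0.43, adjusted p = 6.0e-05). In contrast Relb, the subunit of the non-canonical NF-kB dimer, held 37.4, 31.6 and 23.7 CPM in untreated cells, 176, 173 and 146 CPM at 0.1 ng/ml and 249, 223 and 219.6 CPM at 10 ng/ml. The groups did not overlap, and the difference between the doses was 0.49 ± 0.14 (adjusted p = 0.00977; 95% interval 0.20 to 0.77), and -0.07 over library totals. Without the third library at 0.1 ng/ml this call was lost (adjusted p = 0.0657), as it was without both Rn45s-rich libraries (adjusted p = 0.0820).

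Of 25 genes of the TLR4 complex and its adaptors 8 were higher and 2 lower at 10 ng/ml, and 14 higher and 3 lower with the block. The median, 0.24, was -0.30 over library totals. Across all tested genes 14.8% were higher and 17.4% lower. Tlr4 held 77.3, 94.5 and 58.0 CPM at 10 ng/ml and 93.5, 100.7 and 65.9 CPM at 0.1 ng/ml and was not called (-0.18 ± 0.32, adjusted p = 0.785; 95% interval -0.85 to 0.49), although over library totals it was called lower (-0.71, adjusted p = 0.0422). Cd14, which loads LPS onto TLR4, held 1150.2, 639 and 338 CPM in untreated cells, 3119.8, 2224 and 935 CPM at 0.1 ng/ml and 5329, 3779 and 2349 CPM at 10 ng/ml. Within each replicate number the level was higher at each dose step, while the groups overlapped, and Cd14 was called with the block only (0.87 ± 0.47, adjusted p = 0.179; adjusted p = 6.1e-06 with the block). Ly96, the MD-2 subunit that binds the lipid, stood at 9.09, 9.13 and 9.32 CPM in untreated cells, 9.77, 9.21 and 9.41 CPM at 0.1 ng/ml and 21.5, 15.5 and 15.2 CPM at 10 ng/ml (0.88 ± 0.24, adjusted p = 0.00942). The Ly96 call was lost without the first library at 10 ng/ml (adjusted p = 0.0611) and over library totals (log2 difference 0.31). The adaptor gene Myd88 was higher by 1.0 ± 0.18 (adjusted p = 3.5e-04), with 467, 348 and 478 CPM at 10 ng/ml and 259, 229 and 157 CPM at 0.1 ng/ml. The kinase adaptor Tab1 (-1.32 ± 0.14, adjusted p = 2.6e-06) and the kinase Irak4 (-0.69 ± 0.15, adjusted p = 0.00197) were lower at 10 ng/ml. Tab2 needed 10 ng/ml, with 205, 189 and 189 CPM in untreated cells, 348, 286 and 184 CPM at 0.1 ng/ml and 825, 601 and 718 CPM at 10 ng/ml, although with the block it was called at 0.1 ng/ml too. Tlr2, the lipopeptide receptor, was not called (0.74 ± 0.28, adjusted p = 0.0565; adjusted p = 0.00108 with the block; called without the first library at 0.1 ng/ml, adjusted p = 0.0395, or without the first, adjusted p = 0.0174, or the third untreated one, adjusted p = 0.0339) and had 57.0% of its rise at 0.1 ng/ml.

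Of 21 genes of nitric oxide, arginine, itaconate and prostanoid metabolism 9 were higher at 10 ng/ml and 0 lower (11 and 2 with the block, 7 and 3 over library totals, 5 and 0 without the third library at 0.1 ng/ml). Over all tested genes 14.8% were higher and 17.4% lower in the main fit. Nos2, the inducible nitric oxide synthase, held 275, 194 and 548 CPM at 10 ng/ml and 18.8, 20.7 and 6.80 CPM at 0.1 ng/ml (4.46 ± 0.55, adjusted p = 8.0e-06), and 4.41% of its rise was present at the lower dose. Ptgs2 (cyclooxygenase 2) held 2456, 2152 and 2821 CPM at 10 ng/ml and 261, 189 and 33.4 CPM at 0.1 ng/ml (3.94 ± 0.48, adjusted p = 8.0e-06). Irg1 (Acod1), which makes itaconate, had covered 26.6%, with 12286, 9337 and 12378 CPM at 10 ng/ml and 4255, 3918 and 935 CPM at 0.1 ng/ml (1.90 ± 0.57, adjusted p = 0.0157). Its call was lost without the third library at 0.1 ng/ml (adjusted p = 0.0733) and without both Rn45s-rich libraries (adjusted p = 0.137). Arginase 2 (Arg2) was near its maximum at 0.1 ng/ml, with 2.55, 3.60 and 4.19 CPM in untreated cells, 9.89, 13.99 and 13.7 CPM at 0.1 ng/ml and 9.08, 9.80 and 13.6 CPM at 10 ng/ml.

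The 71 genes near their maximum at 0.1 ng/ml had a median share of the rise of 79.7%, with 93.3%, 96.0% and 55.3% by replicate number. The rule for the class keeps this share high, so it is no separate result. Icosl, a ligand that costimulates T cells, held 25.04, 16.8 and 19.7 CPM in untreated cells, 308, 241 and 190.0 CPM at 0.1 ng/ml and 288, 195 and 350.2 CPM at 10 ng/ml. The groups at the 2 doses overlapped, the difference was 0.17 ± 0.29 (adjusted p = 0.762; 95% interval -0.44 to 0.78), and the share of the rise was 87.7%. Mcl1, a survival protein of the Bcl2 family, held 445, 416 and 387 CPM untreated, 1176, 960.2 and 781 CPM at 0.1 ng/ml and 1242, 1021 and 910.0 CPM at 10 ng/ml (10 against 0.1 ng/ml, 0.12 ± 0.20; 95% interval -0.29 to 0.54). Clec5a, an activating C-type lectin receptor, held 64.4, 40.7 and 32.4 CPM untreated, 310.2, 219 and 144 CPM at 0.1 ng/ml and 327, 237 and 183 CPM at 10 ng/ml (0.15 ± 0.38; -0.65 to 0.95).

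The transcription factor genes Ets2 and Cebpd had shares of 103% and 98.4%, and Sfpi1 (PU.1), the master regulator of the myeloid lineage, 61.6%. Sfpi1 held 354, 302 and 278 CPM in untreated cells, 731, 587 and 586 CPM at 0.1 ng/ml and 994, 637 and 877 CPM at 10 ng/ml and was called between the doses with the block (0.40 ± 0.17, adjusted p = 0.0813; adjusted p = 0.00436 with the block), and also without the second library at 10 ng/ml (adjusted p = 0.0174) or the first at 0.1 ng/ml (adjusted p = 0.0490). Syk, the kinase downstream of Clec5a and other activating receptors, sat at the edge of the class. Its difference was 0.52 ± 0.22, with an upper 95% limit of 0.99. Syk was called higher at 10 ng/ml with the block (adjusted p = 0.002925), in DESeq2 (adjusted p = 0.03099) and without the first library at 0.1 ng/ml (adjusted p = 0.0234). Just outside the class lay Amotl1, with an upper limit of 1.01. The genes of a pair of cytosolic subunits of the phagocyte oxidase were in the class, Ncf1 with a share of 74.2% and Ncf4 with 108%, as were the copper transporter genes Slc31a1 (69.0%) and Slc31a2 (113%). Slc31a1 was called higher at 10 ng/ml with the block (adjusted p = 0.01485) and in DESeq2 (adjusted p = 0.02217). The prostaglandin E2 receptor gene Ptger4 held 45.3, 30.5 and 25.5 CPM in untreated cells, 105, 59.7 and 70.0 CPM at 0.1 ng/ml and 78.5, 63.2 and 81.8 CPM at 10 ng/ml (-0.07 ± 0.23; 95% interval -0.56 to 0.42). Relb and Mcl1 met the rule in 23 of 24 fits (the one described and 23 alternatives), Clec2d in 22, Icosl and Cebpd in 21, Ets2 and Sfpi1 in 19, Arg2 and Clec5a in 17 and Syk in 11.

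The 167 genes that needed 10 ng/ml had a median share of 7.78%, a low value that the rule for the class builds in. Among them was Irf8, a transcription factor that microglia and other macrophages depend on. It held 326, 320.1 and 287 CPM in untreated cells, 248, 267 and 217 CPM at 0.1 ng/ml and 1896, 2141 and 1534 CPM at 10 ng/ml. Every library at 0.1 ng/ml lay below every untreated one, and every library at 10 ng/ml lay far above both groups. The difference between the doses was 2.93 ± 0.15 (adjusted p = 2.6e-09). At 0.1 ng/ml the change against untreated cells was -0.35 ± 0.14 (adjusted p = 0.123), which the block called as a fall (adjusted p = 0.0250), so that Irf8 left the class in that fit. Hk2, the hexokinase isoform of highly glycolytic cells, held 89.6, 82.4 and 67.7 CPM untreated, 82.7, 87.7 and 42.9 CPM at 0.1 ng/ml and 659.9, 630.2 and 543 CPM at 10 ng/ml (3.10 ± 0.26, adjusted p = 1.6e-07). Sirt1, a deacetylase, held 22.96, 26.4 and 25.1 CPM untreated, 31.1, 33.8 and 22.4 CPM at 0.1 ng/ml and 174, 175 and 120.0 CPM at 10 ng/ml (2.42 ± 0.23, adjusted p = 6.1e-07). Cd86, a costimulatory ligand of T cells, held 39.0, 38.6 and 47.9 CPM untreated, 49.4, 60.9 and 45.5 CPM at 0.1 ng/ml and 221, 269.5 and 251 CPM at 10 ng/ml (2.25 ± 0.24, adjusted p = 1.8e-06).

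Ppargc1b, a coactivator of mitochondrial genes, held 28.1, 24.2 and 22.7 CPM at 10 ng/ml and 2.46, 2.33 and 0.805 CPM at 0.1 ng/ml, the largest difference of the class among the named members (3.75 ± 0.47, adjusted p = 9.5e-06). The Hedgehog receptor gene Ptch1 held 57.6, 76.1 and 70.0 CPM at 10 ng/ml and 9.58, 13.3 and 9.77 CPM at 0.1 ng/ml (2.64 ± 0.27, adjusted p = 1.5e-06). The small GTPase gene Rhob held 1306, 758 and 971 CPM at 10 ng/ml and 232, 140.3 and 119 CPM at 0.1 ng/ml (2.63 ± 0.26, adjusted p = 1.2e-06). The STAT genes Stat3 and Stat5b were also in the class, with shares of 10.3% and -2.72%. Stat3 held 366, 399 and 458 CPM at 10 ng/ml and 159.96, 166 and 139 CPM at 0.1 ng/ml (1.40 ± 0.15, adjusted p = 2.1e-06). Hk2, Ptch1 and Rhob met the rule in all 24 fits, Cd86, Lap3 and Sirt1 in 23, Irf8 in 21, Ppargc1b in 20, Osm in 18 and Tab2 in 17. Of 20 genes of glycolysis 5 were higher and 0 lower at 10 ng/ml, against 14.8% and 17.4% of all tested genes. With the block 10 were higher and 1 lower. Besides Hk2 the largest differences were in Pfkfb3 (1.90 ± 0.37, adjusted p = 5.7e-04) and Pfkp (1.58 ± 0.16, adjusted p = 1.3e-06), which set the flux at phosphofructokinase. The median of the glycolysis list, 0.32, was -0.23 over library totals.

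**Figure D3:**
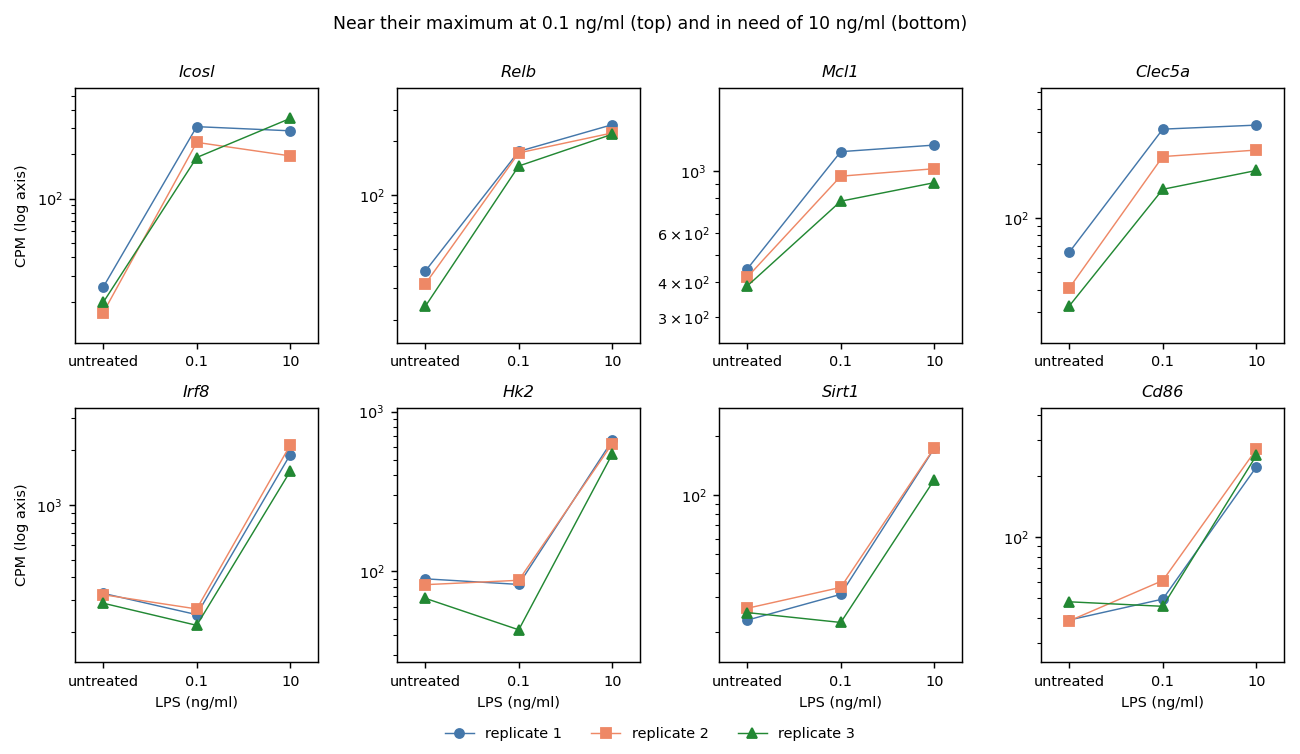
CPM on a log axis by LPS dose in wild-type microglia, one marker and line for each replicate number, for 4 genes near their maximum at 0.1 ng/ml (top) and 4 that needed 10 ng/ml (bottom). The top panels flatten between 0.1 and 10 ng/ml, while Irf8, Hk2, Sirt1 and Cd86 stay near their untreated level at 0.1 ng/ml. The class rules ask for these shapes. Irf8 goes below its untreated level at 0.1 ng/ml in all 3 libraries.

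Another 8 genes (0.0602%), of which Spata13 also counted as near its maximum, had risen at 0.1 ng/ml and were lower at 10 than at 0.1 ng/ml, and 30 with the block. Without the third untreated library 5 met the rule, 4 of them among the 8. Nfe2l2 (NRF2), the regulator of the antioxidant response, held 297, 274 and 272 CPM in untreated cells, 585, 618 and 519 CPM at 0.1 ng/ml and 395, 407 and 366 CPM at 10 ng/ml. It peaked at the lower dose in every replicate number, and the difference was -0.56 ± 0.15 (adjusted p = 0.00894). Pou2f2 (OCT2), a transcription factor of B cells and macrophages, held 70.6, 55.1 and 48.0 CPM untreated, 119.8, 112 and 121 CPM at 0.1 ng/ml and 32.5, 26.6 and 57.2 CPM at 10 ng/ml (-1.60 ± 0.25, adjusted p = 8.1e-05). Gadd45g, a stress-response gene, held 10.5, 12.2 and 10.5 CPM untreated, 26.1, 40.1 and 35.9 CPM at 0.1 ng/ml and 6.36, 11.1 and 17.7 CPM at 10 ng/ml (-1.54 ± 0.45, adjusted p = 0.0126), and its call was lost without the first library at 10 ng/ml (adjusted p = 0.0677). Mertk, a receptor for the uptake of dead cells, took the opposite course. It held 118, 156 and 141 CPM in untreated cells, 47.9, 76.4 and 59.4 CPM at 0.1 ng/ml and 193, 285 and 203 CPM at 10 ng/ml. Mertk fell at 0.1 ng/ml (-1.18 ± 0.24, adjusted p = 0.00193) and rose at 10 ng/ml (0.71 ± 0.24, adjusted p = 0.0177), a difference between the doses of 1.89 ± 0.25 (adjusted p = 1.4e-05).

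The genes that fell at 10 ng/ml comprised 24 near their minimum at 0.1 ng/ml (0.181%), 153 with a graded fall (1.15%) and 253 that needed 10 ng/ml (1.90%), and 1602 met none of these rules. With the replicate block these classes held 36, 228 and 278 genes, of which 23, 152 and 145 were among those of the main fit. The median shares of the fall present at 0.1 ng/ml, taken as for the rise, were 89.2%, 69.95% and 25.7%. The class rules fix much of these values in advance. Without the third library at 0.1 ng/ml these classes held 46, 207 and 96 genes. Without the second one they held 19, 94 and 388. Gpr34, a lysophosphatidylserine receptor typical of microglia, was near its minimum, with 88.2, 89.0 and 134 CPM in untreated cells, 28.5, 33.0 and 31.6 CPM at 0.1 ng/ml and 29.3, 29.2 and 18.5 CPM at 10 ng/ml (-0.28 ± 0.25, adjusted p = 0.472). The sialyltransferase gene St8sia4 held 118, 96.2 and 122 CPM untreated, 45.8, 44.8 and 43.7 CPM at 0.1 ng/ml and 33.4, 26.9 and 41.8 CPM at 10 ng/ml (-0.40 ± 0.15, adjusted p = 0.0515; adjusted p = 0.00711 with the block), and was also called without the third library at 10 ng/ml (adjusted p = 0.00957) or the second untreated one (adjusted p = 0.0476). Eef2k, a kinase that slows translation, held 49.2, 50.5 and 43.2 CPM untreated, 20.3, 21.5 and 20.8 CPM at 0.1 ng/ml and 15.1, 14.1 and 11.0 CPM at 10 ng/ml (-0.64 ± 0.13, adjusted p = 7.0e-04).

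Among the graded falls was Cebpa, a transcription factor of the myeloid lineage, which held 413, 407 and 420.4 CPM in untreated cells, 64.2, 58.3 and 139.6 CPM at 0.1 ng/ml and 9.50, 10.6 and 7.07 CPM at 10 ng/ml. No groups overlapped, the third library at 0.1 ng/ml lay closest to the untreated level, and the difference between the doses was -3.27 ± 0.36 (adjusted p = 3.1e-06). Cd300lb, an activating receptor of myeloid cells, held 226, 190.4 and 244 CPM untreated, 56.1, 47.2 and 125 CPM at 0.1 ng/ml and 1.98, 3.67 and 2.94 CPM at 10 ng/ml (-4.73 ± 0.37, adjusted p = 9.9e-08). Bmf, a pro-apoptotic member of the Bcl2 family, held 0.908, 0.823 and 0.735 CPM at 10 ng/ml and 6.62, 5.57 and 28.4 CPM at 0.1 ng/ml (-4.03 ± 0.57, adjusted p = 3.3e-05). Of 33 G protein-coupled receptors of macrophages 9 were lower at 10 ng/ml and 8 higher (11 and 11 with the block), and 7 fell in a graded way. Across all tested genes 17.4% were lower, 14.8% higher and 1.15% fell in a graded way. The cannabinoid receptor gene Cnr2 held 34.6, 31.7 and 42.7 CPM in untreated cells, 3.28, 3.53 and 13.9 CPM at 0.1 ng/ml and 0.495, 0.673 and 0.275 CPM at 10 ng/ml (-3.81 ± 0.51, adjusted p = 1.8e-05). The sphingosine 1-phosphate receptor gene S1pr1 held 224, 185 and 255 CPM untreated, 61.9, 56.8 and 131 CPM at 0.1 ng/ml and 9.91, 12.9 and 13.1 CPM at 10 ng/ml (-2.80 ± 0.40, adjusted p = 4.0e-05). On the other side, the adenosine receptor gene Adora2a was higher by 2.93 ± 0.56 (adjusted p = 5.4e-04), with 125, 95.1 and 118 CPM at 10 ng/ml and 21.2, 19.3 and 3.93 CPM at 0.1 ng/ml.

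Among the falls that needed 10 ng/ml, Gpr65, a proton-sensing receptor, held 185, 140.2 and 125 CPM in untreated cells, 139, 142 and 142 CPM at 0.1 ng/ml and 9.99, 20.4 and 9.37 CPM at 10 ng/ml. The libraries at 0.1 ng/ml lay within the untreated range and the difference between the doses was -3.41 ± 0.32 (adjusted p = 5.4e-07). Cx3cr1, the fractalkine receptor that marks microglia, held 1445, 827 and 990.0 CPM untreated, 918, 591 and 1003 CPM at 0.1 ng/ml and 212, 192 and 148 CPM at 10 ng/ml (-2.19 ± 0.21, adjusted p = 9.8e-07). At 0.1 ng/ml its first and second libraries lay below the untreated ones of the same number, and the third did not. Over the 253 genes of the class the median share of the fall at 0.1 ng/ml was 34.9%, 37.6% and 3.43% by replicate number. For 192 of them the share of the group means lay between 10% and 50%. Pmaip1 (Noxa), a pro-apoptotic gene, held 8.84, 10.2 and 9.92 CPM at 10 ng/ml and 23.6, 22.7 and 50.9 CPM at 0.1 ng/ml (-1.75 ± 0.27, adjusted p = 7.6e-05) and met the rule in all 24 fits. The formin gene Fmnl3 held 29.5, 29.2 and 27.0 CPM at 10 ng/ml and 124, 100.3 and 159 CPM at 0.1 ng/ml (-2.16 ± 0.18, adjusted p = 2.0e-07). Tfeb, a master regulator of lysosomal genes, was in none of the falling classes. It held 2.31, 2.095 and 1.19 CPM at 10 ng/ml and 13.99, 12.7 and 25.6 CPM at 0.1 ng/ml (-3.21 ± 0.35, adjusted p = 2.2e-06).

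**Figure D4:**
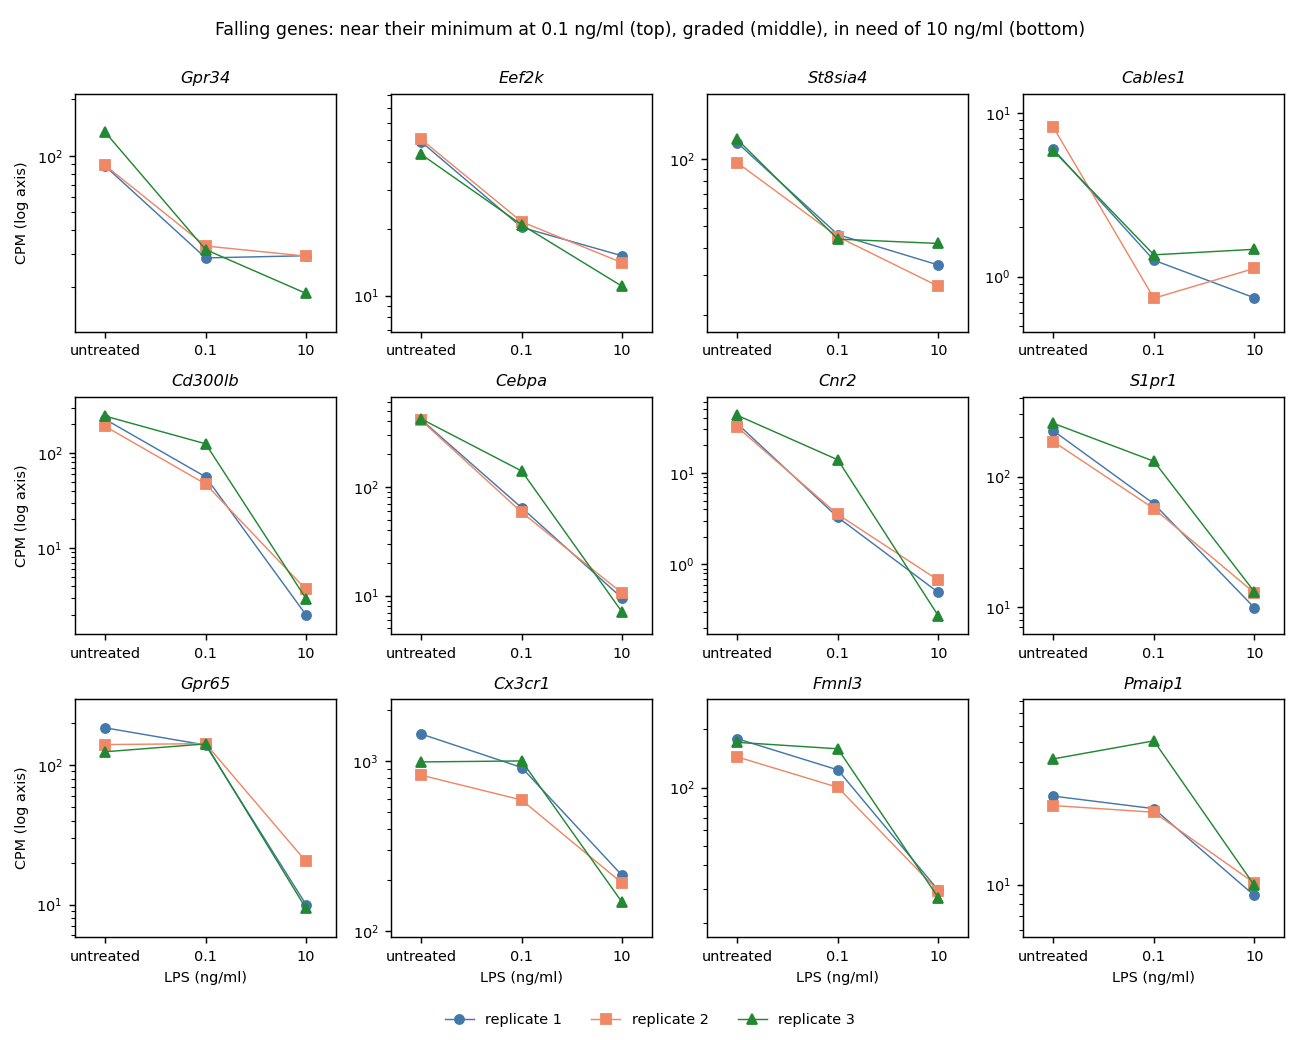
CPM on a log axis by LPS dose in wild-type microglia, one marker and line for each replicate number, for 4 genes near their minimum at 0.1 ng/ml (top), 4 with a graded fall (middle) and 4 whose fall needed 10 ng/ml (bottom). Replicate 3 is the highest at 0.1 ng/ml in every panel of the middle row, and of the bottom row in all but Gpr65; Cebpa holds 140 CPM there against 58.3 and 64.2 CPM in the other 2 libraries of the dose.

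Of 31 tested homeostatic microglial genes 4 were higher and 4 lower at 10 ng/ml (7 and 8 with the block), shares near the 14.8% and 17.4% of all tested genes, and the median was -0.04. Cx3cr1, Mef2c, Csf1r and Tmem119 were the 4 lower ones, and Irf8, Mertk, Sall1 and P2ry6 the 4 higher ones. The Tmem119 call was lost without any 1 of the libraries at 10 ng/ml other than the third, without the first or the third at 0.1 ng/ml and without any untreated one (adjusted p = 0.0505 to 0.186). It was also lost without both Rn45s-rich libraries (adjusted p = 0.111). That of Sall1 was lost without the third at 10 ng/ml and without the first or the second at 0.1 ng/ml (adjusted p = 0.0618 to 0.0984). Csf1r, the receptor for the survival factor of microglia, held 2529, 1924 and 1739.6 CPM at 10 ng/ml and 3732, 2963 and 3324 CPM at 0.1 ng/ml (-0.69 ± 0.20, adjusted p = 0.0116), a call lost without both Rn45s-rich libraries (adjusted p = 0.113) and without the third library at 10 ng/ml (adjusted p = 0.0604). P2ry12, the purinergic receptor used to mark resting microglia, held 14.1, 14.3 and 8.91 CPM at 10 ng/ml and 13.2, 17.2 and 12.5 CPM at 0.1 ng/ml and was not called (-0.20 ± 0.42, adjusted p = 0.829). Over library totals the list's median was -0.59, with 3 members higher and 17 lower.

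Of 19 genes of MHC class I presentation 14 were higher at 10 ng/ml and 0 lower (18 and 0 with the block, 9 and 0 without both Rn45s-rich libraries, 6 and 0 over library totals; median 0.86). Here and for the class II list, the background was 14.8% higher and 17.4% lower over all tested genes. The transporter gene Tap1 held 864, 760.0 and 909 CPM at 10 ng/ml and 312, 296 and 204 CPM at 0.1 ng/ml (1.64 ± 0.26, adjusted p = 7.8e-05). Nlrc5, the transactivator of class I genes, differed most (2.51 ± 0.40, adjusted p = 1.0e-04). Of 15 class II and costimulatory genes 9 were higher and 0 lower (11 and 0 with the block; median 1.93). Among them Cd40, the receptor for T cell help, held 1339, 1012 and 1225 CPM at 10 ng/ml and 261, 207 and 43.0 CPM at 0.1 ng/ml (2.81 ± 0.49, adjusted p = 2.3e-04). Cd80, the partner of Cd86, held 38.0, 38.8 and 29.7 CPM at 10 ng/ml and 6.24, 5.57 and 6.24 CPM at 0.1 ng/ml (2.56 ± 0.19, adjusted p = 7.8e-08).

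Of 29 immediate early factors and MAP kinase phosphatases 11 were higher and 2 lower (11 and 4 with the block; median 0.39, and -0.17 over library totals). For the lists of this paragraph the background was 14.8% higher and 17.4% lower over all tested genes. Dusp1, a phosphatase that switches off p38, held 188, 148 and 188 CPM at 10 ng/ml and 57.1, 29.8 and 34.8 CPM at 0.1 ng/ml (2.1 ± 0.28, adjusted p = 1.7e-05). Dusp2 held 415, 300.5 and 411 CPM at 10 ng/ml and 98.9, 59.6 and 17.4 CPM at 0.1 ng/ml (2.68 ± 0.42, adjusted p = 9.0e-05). Fos, by contrast, was lower at 10 ng/ml after 3 h, with 28.5, 29.6 and 34.6 CPM, against 94.9, 45.7 and 97.7 CPM at 0.1 ng/ml (-1.36 ± 0.36, adjusted p = 0.00669; adjusted p = 0.0621 without both Rn45s-rich libraries), and so was Dusp6, an ERK phosphatase (-1.41 ± 0.24, adjusted p = 1.9e-04). Genes described in the literature on macrophages as primary responders, which need no new protein, had a median share of the rise of 19.7% over 27 risen members. Secondary responders had 10.6% over 18, and 25 of 30 primary and 12 of 19 secondary genes were higher at 10 ng/ml (26 and 17 with the block), with 1 (Fos) and 0 lower.

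Counts of calls in cholesterol synthesis and the cell cycle depended on the fit. Of 22 cholesterol synthesis genes 6 were lower and 0 higher at 10 ng/ml (16 lower and 2 higher with the block; median -0.45). Across all tested genes 17.4% were lower and 14.8% higher. Lss, lanosterol synthase, held 12.5, 8.98 and 12.9 CPM at 10 ng/ml and 25.01, 19.6 and 33.7 CPM at 0.1 ng/ml (-1.19 ± 0.22, adjusted p = 4.5e-04). Without the third library at 0.1 ng/ml 3 of the list were lower. Of 34 cell cycle genes 2, Cdc6 and Ccne2, were lower (25 lower and 2 higher with the block, 18 lower and 1 higher in the 6 LPS libraries alone; median -0.59), and neither was called without that library. Cdc6, which loads the replicative helicase, held 0.908, 0.823 and 0.918 CPM at 10 ng/ml and 5.36, 3.41 and 4.08 CPM at 0.1 ng/ml (-2.27 ± 0.77, adjusted p = 0.0292). Leaving out any library at 10 ng/ml, or the first or the third at 0.1 ng/ml, ended its call (adjusted p = 0.0594 to 0.0825).

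Of 23 genes of the unfolded protein response 4 were higher and 0 lower (12 and 2 with the block; median 0.16, and -0.38 over library totals), led by the chaperone gene Hspa5 (BiP) with 1379, 1342 and 1417 CPM at 10 ng/ml and 726, 766 and 590.0 CPM at 0.1 ng/ml (0.99 ± 0.15, adjusted p = 5.7e-05). Across all tested genes, the background for each list of this paragraph, 14.8% were higher and 17.4% lower, and more in either direction with the block. Of 24 lysosomal genes 1 was higher and 2 lower (6 and 5 with the block, 0 and 14 over library totals). Of 18 Bcl2 family genes 4 were higher and 2 lower (10 and 4 with the block; median 0.49, and -0.06 over library totals). Of 10 genes of the other Toll-like receptors and their chaperone 2, Tlr3 and Tlr7, were higher and 2 lower (4 and 4 with the block), and none of these 4 was called without both Rn45s-rich libraries. Tlr3, the sensor of double-stranded RNA, held 216, 217 and 378 CPM at 10 ng/ml and 90.9, 123 and 76.6 CPM at 0.1 ng/ml (1.48 ± 0.32, adjusted p = 0.00168).

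**Figure D5:**
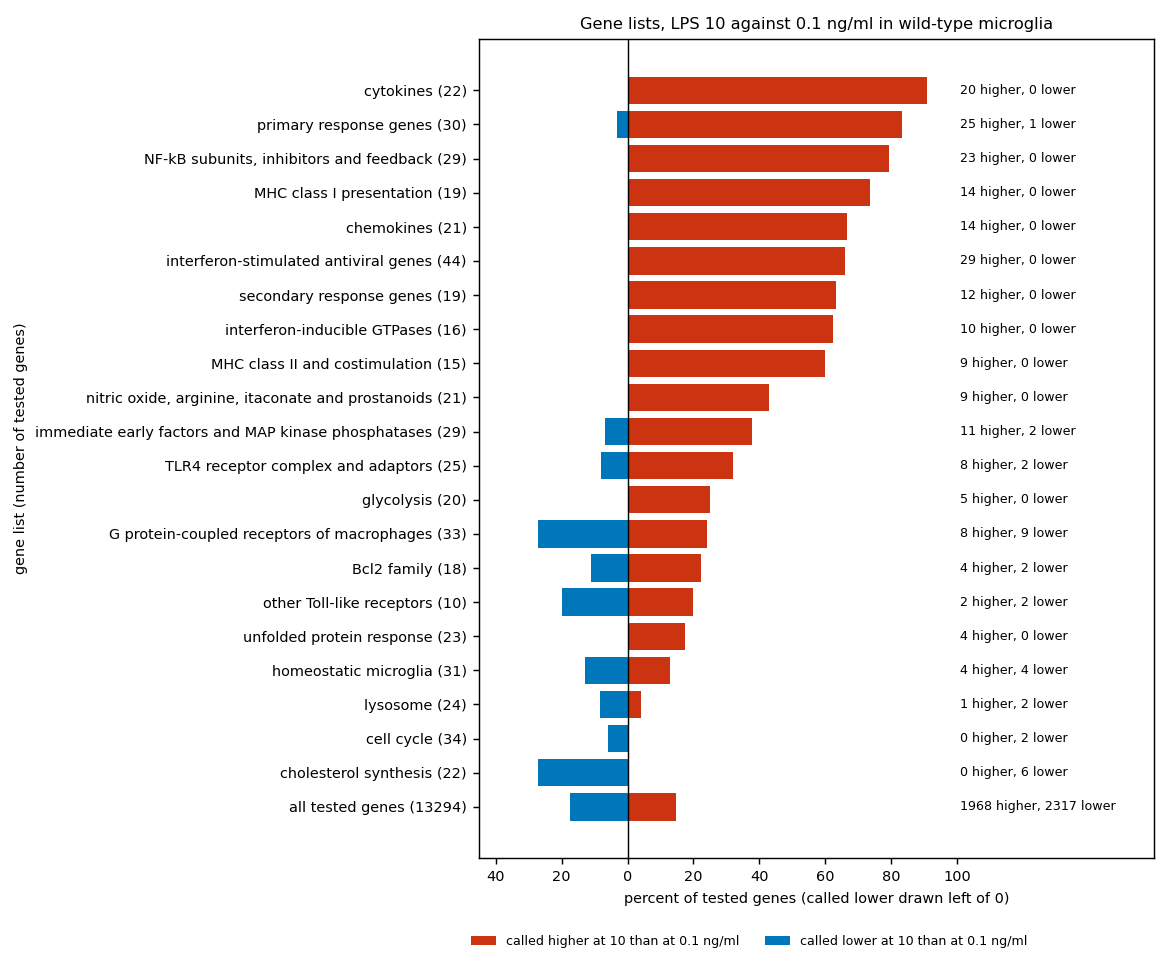
Percent of the tested genes of each list that were called higher (right of 0) or lower (left of 0) at 10 than at 0.1 ng/ml LPS in wild-type microglia, with the counts at the right and the number of tested genes beside each name. Cytokines (20 of 22 higher) and NF-kB genes (23 of 29) stand far above all tested genes (1968 of 13294 higher). In cholesterol synthesis 6 of 22 were lower and 0 higher, against 2317 of 13294 lower among all tested genes.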

How the data were processed

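RNA of primary microglia was sequenced on a HiSeq2000 from TruSeq libraries, per the labels' protocols. Per the submitters' processing notes, the authors' tools were Bowtie2 2.1.0 on mm10, HTSeq 0.5.4 and DESeq, beside CASAVA 1.8.2, SAMtools 0.1.19 and FastQC 0.10.0; the annotation and the use of strand are not given in the sources used here, so overlapping and antisense genes cannot be separated. The deposited table holds raw counts per gene (18919 genes), and a second deposited table, a signal of counts divided by 1 factor per library (12889 genes, equal to within 0.144), was used only in an alternative.

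Genes were filtered by expression (minimum count 10, total 15; 13294 kept), scaled by TMM and fitted with edgeR 4.0.16 in R 4.3.3 over all 24 libraries (8 groups, 16 residual degrees of freedom, robust quasi-likelihood test, no block), adjusted by Benjamini-Hochberg within each contrast. Fold changes are on the log2 scale with a prior count of 0.125. The code was run on simulated counts drawn without any replicate effect. These cannot show how a fit without a block performs on paired libraries. Per-gene precision is limited by 3 libraries a group. The p-values set each difference against the spread within groups, estimated over all 24 libraries. Without a block that spread includes differences between the replicate numbers.

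Replicate numbers were taken as pairing the libraries because every same-number correlation, over 9582 genes, was over 0.1; the labels do not say what a number shares. The members, gene lists and rules were chosen with earlier results of these data known. Genes named were a fixed set of 12, the 15 largest rises and falls between the doses, the leading members of each class (at least 5 CPM), and up to 4 called and 3 uncalled members of each list. Adora2a, Arg2, Ccl3, Dusp6, Fos, Ifit1, Il1a, Irak4, Irf9, Isg15, Ly96, Ncf1, Ncf4, Nfkbia, Osm, P2ry12, Ptger4, S1pr1, Sfpi1, Slc31a1, Slc31a2, Stat3, Stat5b, Syk and Tlr4 were added after their values were seen. Values of some list members are not reported here. Alternatives were a replicate block, smaller sets of libraries, DESeq2 1.42.0, limma 3.58.1 on the normalized values (pseudocount 1 or 5), other scalings, filters and limits, and each library left out in turn.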

Additional observations from a re-analysis of the deposited data

Results flagged for a closer look

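The dose effect, 10 over 0.1 ng/ml, was also compared between genotypes as a difference of the 2 log2 effects (edgeR quasi-likelihood test, Benjamini-Hochberg adjusted), which was higher for 255 and lower for 419 of 13294 genes in wild-type cells, and for 1058 and 1672 with the replicate block. Of the 12 genes named whatever their values, 9 stand here because their dose effect differed between the genotypes. All 9 rose with dose in both genotypes, and on the log2 scale rose less in wild-type cells. The difference, wild-type minus CD14-deficient, was -2.74 for Tnf (wild-type 2.32 ± 0.44, CD14-deficient 5.07 ± 0.50; adjusted p = 0.0108) and -3.0 for Il6 (wild-type 4.76 ± 0.60, CD14-deficient 7.76 ± 0.72; adjusted p = 0.0344). It was -3.92 for Il12b, -3.03 for Il1b, -3.72 for Ccl5, -4.32 for Cxcl1, -4.08 for Cxcl10, -3.28 for Nos2 and -3.54 for Irg1. For Cd14 (which the knockout lacks), Ifnb1 and Il10 the difference was not called (adjusted p = 0.966, 0.607 and 0.383). For each of the 9 genes, every CD14-deficient library at 0.1 ng/ml lay below every wild-type one, with Il6 at 0.713 to 1.20 CPM. At 10 ng/ml CD14-deficient libraries lay below all wild-type ones for Il6, Ccl5, Cxcl10 and Nos2, and above all for Cxcl1. For the others of the 9 the genotypes overlapped at that dose. The 4 groups share no library. The wild-type value at 0.1 ng/ml rests in part on the third library, which stood apart.

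Irf8 went opposite ways in the genotypes. The dose effect was 2.93 ± 0.15 in wild-type cells, where all 3 libraries were higher at 10 than at 0.1 ng/ml, and -0.99 ± 0.15 in CD14-deficient cells (adjusted p = 3.0e-05), where all 3 were lower. CD14-deficient cells held 147, 109 and 132 CPM at 10 ng/ml and 276, 233 and 264 CPM at 0.1 ng/ml. The difference between the genotypes was 3.92 (adjusted p = 3.5e-09).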

How the results depend on the processing

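With the replicate block, 3704 genes were higher and 3872 lower at 10 than at 0.1 ng/ml (1968 and 2317 without it), 2814 rose and 2706 fell at 0.1 ng/ml against untreated cells (1322 and 753), the genotype difference held 1058 and 1672, 146 genes were near their maximum, 30 lower after a rise, and 87 list members lower (31). With 6 LPS libraries alone and the block, 70 list members were lower. Library totals alone gave 840 higher and 6117 lower between the doses, 1444 and 7408 at 10 ng/ml (3097 and 3473), 1597 lower at 0.1 ng/ml, 663 lower in the genotype difference, 112 list members lower, classes of 110 (near maximum), 54 (needed 10 ng/ml), 216 (graded rise), 25 (lower after a rise), 10 (near minimum), 724 (fall needed 10 ng/ml) and 390 (graded fall), and a median share of 40.9%. They shifted all differences by about -0.56, and of the named genes called in either fit 9 turned below 0: Aldoa (-0.36), C1qc (-0.54), Clec2d (-0.057), Mcl1 (-0.43), Npc2 (-0.14), Relb (-0.071), Sel1l (-0.10), Unc93b1 (-0.43) and Vasp (-0.018). Without both Rn45s-rich libraries there were 1133 higher, 1352 lower, 91 that needed 10 ng/ml, 47 near their minimum, 119 falls that needed 10 ng/ml and 18 list members lower. At adjusted p under 0.01 there were 1517 lower between the doses, 375 lower at 0.1 ng/ml, 123 and 194 in the genotype difference, 4 lower after a rise and 19 list members lower. A 1.5-fold limit gave 692 graded rises, 22 lower after a rise and 418 graded falls. DESeq2 put 391 genes higher in the genotype difference, limma 38 near their minimum (pseudocount 1), and 60 falls that needed 10 ng/ml and 55 graded falls (pseudocount 5). Leaving out 1 library gave 354 to 1054 lower at 0.1 ng/ml, 169 to 259 higher and 268 to 498 lower in the genotype difference, 42 to 111 near maximum, 96 to 225 that needed 10 ng/ml, 5 to 10 lower after a rise, 16 to 46 near minimum, 96 to 388 falls that needed 10 ng/ml and 94 to 207 graded falls. The share on the log2 scale was 49.14%. The cause of these shifts was not tested. Of 5981 values of named genes under alternatives, 5524 kept their call or, where uncalled, stayed uncalled and within 1 SE. Depth limits genes under about 5 CPM, such as Il10 at 0.1 ng/ml.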
